A study of Mus musculus with 25 samples.

Results

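Sall4 was followed here as 1 gene across 9 lists of chromatin interactions, each list pairing bins of 10 kb. The authors' gene columns in both lists of TKO cells assign Sall4 to the bin at positions 168760001 to 168770000 of chromosome 2 (mm10), called the Sall4 bin below. Every listed pair that touched this bin or the bin on either side was taken, which gave 103 of the 912901 entries in the 9 lists, or 42 distinct pairs of bins. The gene was chosen by its numbers of listed interactions in fibroblasts and ES cells, so the difference between those cells is given as a description, without a test.

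SALL4 is a zinc finger transcription factor of the spalt-like family. In embryonic stem cells it binds DNA together with OCT4, SOX2 and NANOG and is part of the network that keeps these cells pluripotent, and it recruits the NuRD complex, a nucleosome-remodelling histone deacetylase, to chromatin. Fibroblasts do not use this network, and Sall4 is among the genes that are switched on when they are reprogrammed. H3K27ac, acetylation of a lysine in the tail of histone H3, marks promoters and enhancers in use, and pairs of bins recovered with it often join a promoter to an enhancer.

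The 25 libraries came from mouse cells. HiChIP joins neighbouring DNA ends by ligation in fixed nuclei and recovers them with an antibody, here to H3K27ac or to the reprogramming factor KLF4, whereas Hi-C needs no antibody. Mouse embryonic fibroblasts (MEFs) of E13.5 embryos were heterozygous for an Oct4-GFP reporter, an OKSM cassette (Oct4, Klf4, Sox2 and c-Myc) and rtTA3, the doxycycline-dependent activator. They were collected at passage 3 for H3K27ac HiChIP (2 libraries) and Hi-C (2 libraries). KLF4 HiChIP was made from cells of the same kind after 3 days (day 3, in bulk, 3 libraries) or 6 days (day 6, sorted for the surface marker SSEA1, 4 libraries) of doxycycline and ascorbic acid. The ES cells were of the line V6.5 in 2i medium, with 4 libraries of KLF4 HiChIP, 2 of H3K27ac HiChIP and 2 of Hi-C. TKO cells, an abbreviation that the labels do not expand, are given as the same V6.5 line in 2i, and their H3K27ac HiChIP compared no doxycycline (0 h, 3 libraries) with 24 h of it (24 h, 3 libraries). Bulk day 3 cells are a mixture, so a contact made in few of them and a weak contact made in most cannot be told apart.

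HiChIP libraries held 48.7 to 181 M contacts, while no contact total was given for Hi-C. The labels mostly matched the lists of contacts, in which 7 of 11 fibroblast markers and 4 of 6 pluripotency markers were annotated. Of the 7 fibroblast markers, 6 had more H3K27ac interactions in MEF than in ES, with 9 against 0 for Thy1 and 8 against 0 for Col1a1. Fn1 went the other way, with 1 in MEF and 5 in ES. All 4 annotated pluripotency markers had more in ES, with 0 against 17 for Pou5f1 and 1 against 23 for Nanog. Gene bins came from the TKO lists alone. Of several bins of a gene the one with most ES H3K27ac interactions was taken, which favours ES. The 4 ES KLF4 libraries formed 2 pairs that stood apart, and libraries that agreed within sampling noise were counted as 1 replicate, which left 2 replicates each for ES KLF4 and for both TKO groups. The labels do not say whether replicates were separate cultures, so the p-values measure only the spread between these samples.

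In RefSeq (GRCm38.p6) Sall4 (gene ID 99377) covers positions 168748332 to 168767201 of chromosome 2, and it is transcribed towards lower positions. Its start therefore lies in the Sall4 bin, and its body runs through the bin on the lower side, at 168750001, called the gene body bin below, and ends in the next, at 168740001. The lncRNA Gm14261 (168766143 to 168768110) starts inside the same bin, so contacts of the 2 genes cannot be told apart. On the lower side lies Atp9a, which encodes a phospholipid-transporting ATPase and has its start in the bin 20 kb away, so contacts of Atp9a and of the end of Sall4 cannot be told apart in that bin. On the higher side the 125.22 kb between Gm14261 and the zinc finger gene Zfp64 hold 1 annotated gene, the snoRNA Gm25214. Bins are named below by their distance from the Sall4 bin, negative towards Atp9a and positive towards Zfp64.

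Bins of the pairs recovered with KLF4 were searched for a motif of that factor in the upstream windows of Gm14261 and Atp9a; the window of Sall4 itself was not analysed here. KLF proteins bind GC-rich motifs, and GGGNGTG, the form searched here, was counted on both strands (CACNCCC on the other), where matches may overlap other GC-box motifs. The 250 bases upstream of Gm14261 lie inside Sall4 in the Sall4 bin and held 3 matches, shown in capitals on the strand of Gm14261. Of the 2 Atp9a windows in the −20 kb bin, 1 held 1 match and the other 0, and the 27 bases around that match are shown on the strand of Atp9a. Of all 32851 upstream windows of this length in the RefSeq table, 26.1% held at least 1 match, and the window upstream of Zfp64 held 0 matches.
Gm14261 upstream, chr2:168765893-168766142, plus strand: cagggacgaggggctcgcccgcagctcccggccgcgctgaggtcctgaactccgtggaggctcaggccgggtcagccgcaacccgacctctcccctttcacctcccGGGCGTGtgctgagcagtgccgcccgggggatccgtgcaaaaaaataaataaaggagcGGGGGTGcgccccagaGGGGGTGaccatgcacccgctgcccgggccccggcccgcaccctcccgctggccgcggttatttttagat
Atp9a upstream, chr2:168742270-168742296, minus strand: tgatgccacaGGGTGTGtgggggtccg

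Sall4 had 26 H3K27ac interactions in ES cells and 0 in MEFs. The Sall4 bin alone had 20 of the ES pairs. In ES the bin ranked at the 99.4th percentile of the 40136 bins with any interaction, with 196 bins having more, and on chromosome 2 only 6 bins had more. TKO cells listed 22 pairs at 0 h and 26 at 24 h, of which 15 and 19 touched the Sall4 bin. The authors' false discovery rate (FDR) was under 0.1 for only 7 of the 26 ES pairs, 7 at 0 h and 6 at 24 h. In all, 18 pairs were in each of the 3 lists of ES-type cells. Among 10485 bins with an annotated gene, all of them held by a TKO list, medians were 1 interaction in MEF and 3 in ES. Of these bins, the Sall4 bin included, 110 had at least its 20 in ES, and 18 of those 110 had 0 in MEF.

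**Figure D1:**
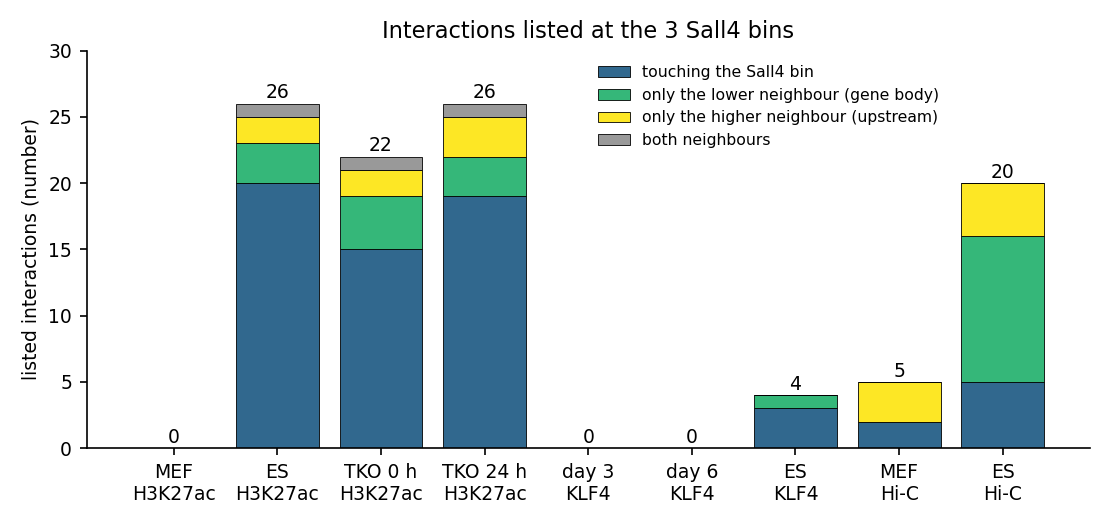
Number of listed interactions (vertical axis) at the Sall4 bin and its neighbours in each of the 9 lists (horizontal axis), coloured by the bin they touch. The 3 H3K27ac lists of ES-type cells hold 22 to 26 pairs, mostly at the Sall4 bin, whereas ES Hi-C holds 20 pairs, mostly at the lower neighbour, and 3 lists hold 0.

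The empty MEF list extended over the whole neighbourhood. The 31 bins from 168660001 to 168970000, a window set by the farthest Sall4 pairs of ES-type cells, allow 465 pairs. MEF H3K27ac listed 0 of them, against 58 in ES and 63 and 64 in TKO before and after doxycycline. Of these listed pairs, 32, 41 and 38 touched none of the 3 Sall4 bins. The nearest MEF pairs lay 150 kb below the Sall4 bin and 870 kb above it. MEF Hi-C listed 19 pairs in the same window, so contacts there were recorded without the antibody, but ES Hi-C listed 85. On all of chromosome 2 the Hi-C lists hold 14002 pairs in MEF and 20660 in ES. The MEF H3K27ac list holds only pairs with more than 3 CPM in both libraries and a p-value under 0.1. CPM are counts scaled to the contacts of the same chromosome in that library. On chromosome 2 a level of 3 CPM corresponds to 17.0 and 24.0 contacts. A Sall4 pair below these limits in MEF would not appear, so no fold change between MEF and ES was computed.

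The same 6 partners of the Sall4 bin exceeded 10 CPM in the 3 H3K27ac lists of ES-type cells. Closest was the gene body at −10 kb, with 19.0 and 19.1 CPM in the 2 ES libraries. The adjacent upstream bin at +10 kb had 16.4 and 17.9 CPM. At −20 kb, the bin with the start of Atp9a and the end of Sall4 had 16.7 and 13.1 CPM. These near partners were thus similar in strength on both sides of the Sall4 start.

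Upstream of Sall4, the bins at +20 and +30 kb carried no annotated gene. In the ES libraries the +20 kb bin had 14.6 and 14.9 CPM, and the +30 kb bin, although farther away, had 15.4 and 16.9. The bin at +40 kb dropped to 5.40 and 4.29 CPM. Beyond this step a separate partner stood at +80 kb (168840001 to 168850000), with 11.8 and 11.9 CPM in ES.

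The +80 kb bin was a local peak in each of the 3 lists. Its neighbour at +70 kb had 4.91 and 4.45 CPM in ES, and the pair with the bin at +90 kb was not listed there. At 0 h the TKO libraries had 10.8, 14.6 and 16.5 CPM at +80 kb, 4.51, 5.65 and 4.50 at +70 kb and 4.63, 5.96 and 3.67 at +90 kb. After doxycycline they had 14.4, 14.1 and 13.1 at +80 kb, 4.47, 4.98 and 3.93 at +70 kb and 5.25, 4.85 and 5.25 at +90 kb. In every library of the 3 groups the +80 kb value exceeded each listed neighbour, with no overlap. At 0 h, replicate 1 was the lowest of the 3 libraries at this pair.

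Distance alone gives near bins more contacts, so each pair was set beside the median CPM of all chromosome 2 pairs of the same list and distance. The 6 strong partners stood 2.86 to 3.67 times above that median in ES, 2.66 to 3.14 times at 0 h and 2.55 to 3.60 times at 24 h. For the +80 kb partner the factor was 2.86, 3.10 and 3.36. At +60 kb the next strongest pair was 2.17 times above it in ES, with 7.81 and 9.38 CPM. The other 13 ES pairs of the Sall4 bin had at most 6.91 CPM, which was 0.90 to 1.66 times the median for their distances. Of the 20 partners in ES, 8 lay on the Atp9a side and 12 on the Zfp64 side, and the farthest were the bin with the start of Zfp64 at 190 kb (3.71 and 3.58 CPM) and the bin at 200 kb (3.38 and 3.81).

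**Figure D2:**
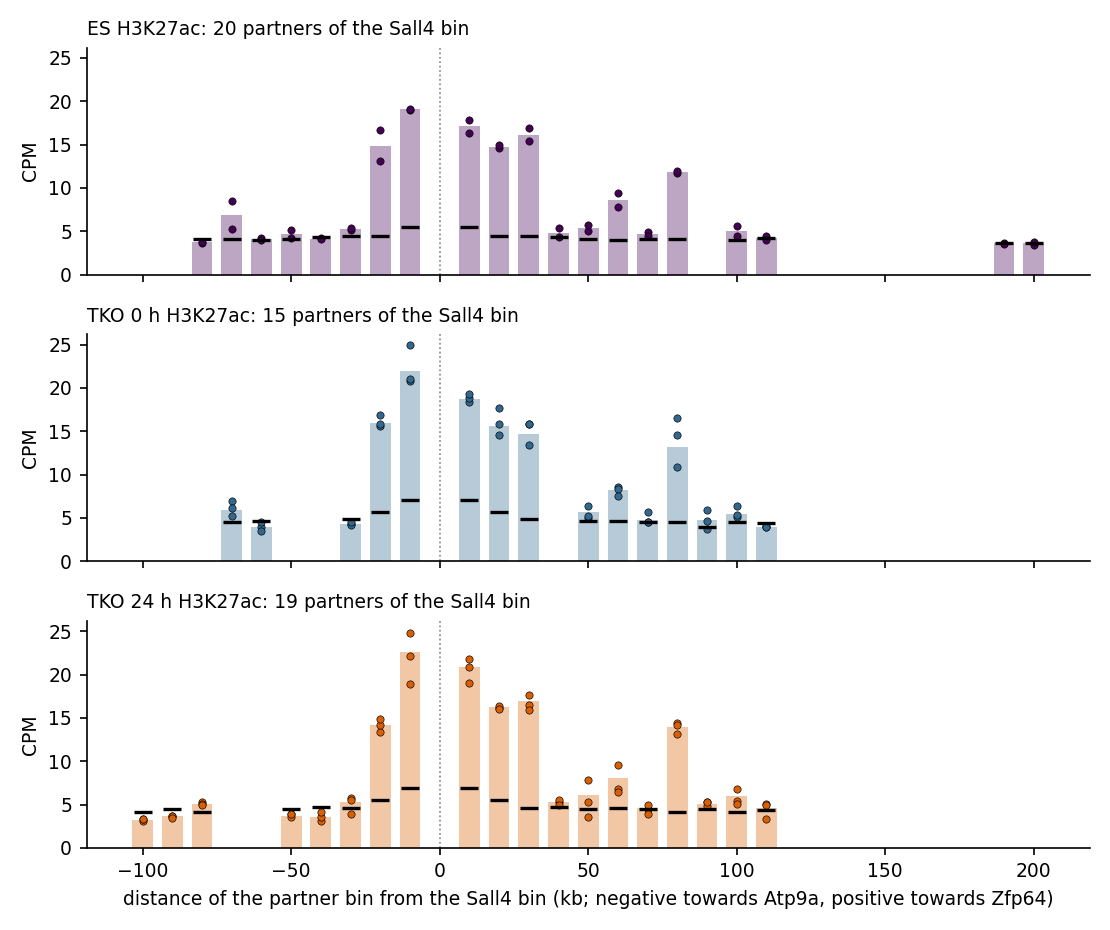
Strength of the H3K27ac pairs of the Sall4 bin in CPM (vertical axes) against the distance of the partner bin in kb (horizontal axis), for ES, TKO 0 h and TKO 24 h. Points are libraries, bars the mean over replicates and black dashes the median of chromosome 2 pairs at that distance; the partners from −20 to +30 kb and the one at +80 kb stand above 10 CPM in all 3 groups.

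Some of the upstream partners were also listed with one another. The pair of the +20 and +30 kb bins was listed in ES (8.78 and 8.34 CPM), TKO 0 h (10.6, 9.72 and 11.3) and TKO 24 h (10.1, 12.05 and 11.1). The pair of the +30 and +80 kb bins was listed as well, with 5.80 and 5.24 CPM in ES, 5.49, 4.70 and 4.34 at 0 h and 6.03, 8.25 and 7.21 at 24 h. Only at 24 h was the pair of the +20 and +80 kb bins listed, with 4.67, 4.58 and 5.41 CPM. Some pairs of the gene body bin or the +10 kb bin with other strong partners were in the 3 lists too. That of the +10 and +30 kb bins had means of 7.64 CPM in ES, 6.30 at 0 h and 9.41 at 24 h. The pair of the −20 and +10 kb bins was in none of the 3 lists.

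The TKO lists carry the authors' H3K27ac ChIP peaks per bin. The Sall4 bin, both its neighbours and the bins at +20, +30 and +80 kb had a peak at 0 h and at 24 h. Of the 15 partners of the Sall4 bin in the 0 h list, 10 had a peak at both times, 2 at 0 h only, 1 at 24 h only and 2 at neither, so 66.7% had both, against 75.6% of partners of chromosome 2 bins with a peak. In the 24 h list it was 11 of 19 partners, 57.9% against 75.0%. The +60 kb bin had its peak at 0 h only, the +100 kb bin at 24 h only.

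Sall4 listed 0 KLF4 interactions at day 3, 0 at day 6 and 4 in ES, where 3 touched the Sall4 bin. The authors' FDR was under 0.1 for 0 of these 4 pairs. All 4 joined bins from −20 to +10 kb, at 10 or 20 kb. All 4 were also in the 3 H3K27ac lists of ES-type cells. Of ES KLF4 pairs on chromosome 2, 71.0% were in ES H3K27ac, by which the Sall4 bin was chosen in part. The pair of the Sall4 bin and the gene body had 5.56, 7.31, 8.25 and 7.20 CPM in ES libraries 1 to 4. The pair with the upstream neighbour had 6.80, 7.05, 4.48 and 4.53, and the pair with the Atp9a bin 4.02, 3.91, 5.56 and 5.73.

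Libraries 1 and 2 were above libraries 3 and 4 at the upstream pair and below them at the Atp9a pair, without overlap. The fourth pair, between the −20 and −10 kb bins, had 5.56, 3.91, 5.56 and 5.73 CPM. Relative to the median of chromosome 2 pairs at the same distance the 4 pairs were 1.09 to 1.48 times as strong, against 1.49 to 3.48 times for the same pairs in ES H3K27ac. None of the +20, +30, +60 or +80 kb partners was listed with KLF4. With 3 interactions the Sall4 bin was at the 77.8th percentile of ES KLF4 bins, and 3169 bins had more. The nearest day 3 pair lay 100 kb above the Sall4 bin, between bins 168860001 and 168870001 (5.31 CPM on average), and the nearest at day 6 lay 870 kb below it. Since day 3 and day 6 listed none of these pairs, no Sall4 pair entered the test of KLF4 in ES against day 3, in which 7.2% of 7387 pairs were called. The day 6 list is short, with 4047 pairs in all and 40 on chromosome 2.

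**Figure D3:**
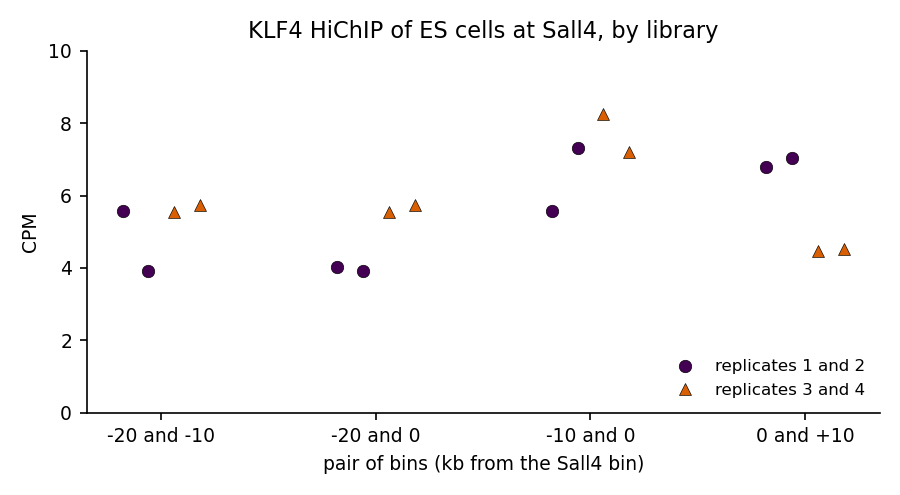
KLF4 HiChIP strength in CPM (vertical axis) of the 4 Sall4 pairs listed in ES (horizontal axis, bins named by kb from the Sall4 bin), 1 point per library. Values run from 3.91 to 8.25 CPM, and replicates 1 and 2 separate from 3 and 4 at the pairs with the −20 and +10 kb bins.

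Hi-C, which measures contacts without selecting for a mark, listed 5 Sall4 pairs in MEF and 20 in ES. The authors' FDR was under 0.1 for 0 of the MEF pairs and 1 of the ES pairs. The ES list is longer, with 20660 pairs on chromosome 2 against 14002 in MEF, and the median over all gene bins was 3 in MEF and 6 in ES. The Sall4 bin itself had 2 and 5, the upstream neighbour 3 and 4, and the gene body bin 0 and 11. Most of the difference in number was thus at the gene body. The Sall4 bin was in the middle of the range of Hi-C bins in ES (49.95th percentile) and lower in MEF (26.3rd percentile), unlike in H3K27ac. Relative to chromosome 2 pairs at the same distance the Hi-C signal of the 5 MEF pairs was 0.82 to 0.98 times the median and that of the 20 ES pairs 0.89 to 1.36 times.

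The highest of these factors was between the gene body and the +100 kb bin in ES, with a signal of 24.6 and 27.6. The +80 kb partner, far above its distance median in H3K27ac, had a Hi-C signal of 16.7 and 21.0 with the Sall4 bin, 0.95 times the median. The pair at +20 kb was not listed in either Hi-C list. Of the 26 ES H3K27ac pairs, 7 were in ES Hi-C (26.9%, against 48.5% for chromosome 2). These 7 are 35% of the 20 Hi-C pairs, against 7.80% for chromosome 2. The Sall4 bin was chosen in part by its ES H3K27ac pairs, so this excess is not independent of that choice. Allowing each anchor to lie 1 bin away raised the first share to 84.6%, and no chromosome 2 share was computed with this allowance.

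Within 1 bin at each anchor, 11 of the 20 ES pairs had a MEF pair, with no chromosome 2 share computed. In exact bins only the pair of the Sall4 bin and the +30 kb bin was in both Hi-C lists. This pair was 5% of the ES pairs, against 38.7% for chromosome 2. Its signal was 27.4 and 29.2 in the MEF libraries, against 25.7 and 41.0 in those of ES. The ES libraries spanned the MEF values. Its log2 change in edgeR's quasi-likelihood test was 0.13 (SE 0.28, Benjamini-Hochberg adjusted p = 0.999), where 0.0322% of 124204 common pairs were called, and DESeq2 did not call it. Leaving out ES replicate 2 turned the direction, to −0.25.

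**Figure D4:**
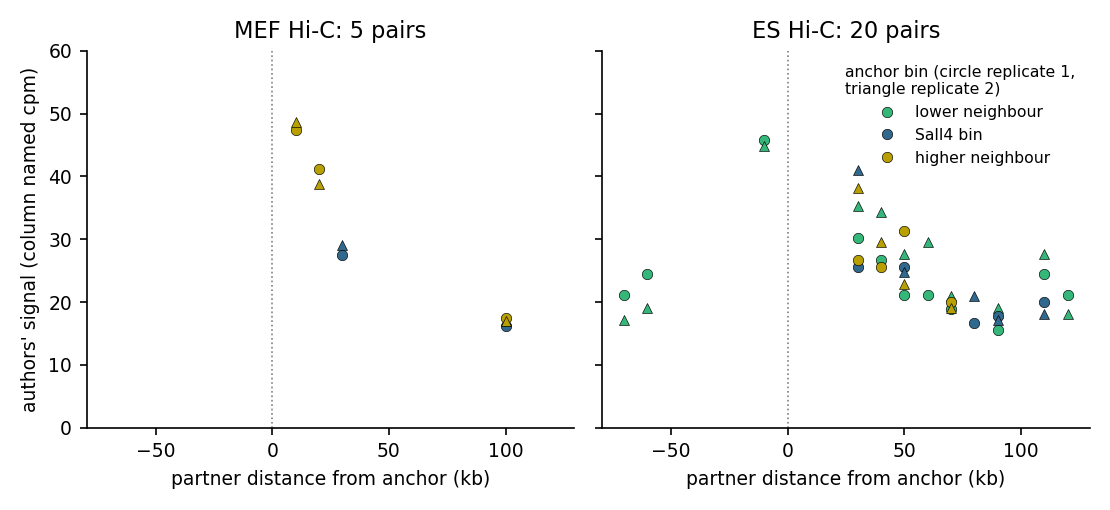
Hi-C signal as deposited (vertical axes) of every listed Sall4 pair against the distance of the partner from its anchor in kb (horizontal axes), for MEF and ES, coloured by anchor bin; circles are replicate 1 and triangles replicate 2. The gene body bin has 11 pairs in ES and 0 in MEF, and MEF pairs reach at most 100 kb.

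The domains around Sall4 also differed between the lists of topologically associating domains (TADs). The MEF domain ran from 168240001 to 168960000 (720 kb) and ended 190 kb above the Sall4 bin, whereas the ES domain ran from 167680001 to 169800000 (2120 kb). Of the 26 ES H3K27ac pairs, 1 (to the +200 kb bin) left the MEF domain and 0 left the ES domain. Each list gives 1 set of domains per cell type, so the difference has no replicate check.

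After 24 h of doxycycline in TKO cells, 2 of the 19 Sall4 pairs held by both lists had risen, and both were anchored in the upstream neighbour, not in the Sall4 bin. The pair of the +10 and +20 kb bins had 5.98, 6.27 and 8.004 CPM at 0 h and 8.56, 11.4 and 9.84 at 24 h. The pair of the +10 and +30 kb bins had 5.73, 6.90 and 6.84 CPM at 0 h and 9.73, 9.69 and 8.53 at 24 h. In both pairs the 2 groups of libraries did not overlap. By edgeR's quasi-likelihood test the log2 changes were 0.72 (SE 0.16, adjusted p = 0.00177) and 0.66 (SE 0.17, adjusted p = 0.00891). Of all 67728 pairs tested, 2.62% were called, 0.576% higher and 2.04% lower, so the 2 of 19 compare with 0.576%. DESeq2, which gave no adjusted p for these pairs, put them at log2 changes of 0.75 and 0.68 with unadjusted p of 0.00588 and 0.0153. Without TKO 24 h replicate 2 neither pair was called (adjusted p of 0.080 and 0.067), and the second call was lost whichever of the 4 replicates was left out (highest adjusted p = 0.132, without the joined 24 h replicates 1 and 3).

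None of the 13 pairs of the Sall4 bin itself was called at 24 h by edgeR, with 2 of them at an unadjusted p under 0.05, and DESeq2 called 0 of the 6 Sall4 pairs to which it gave an adjusted p. The pair with the +30 kb bin had 13.4, 15.8 and 15.8 CPM at 0 h and 16.5, 17.7 and 15.9 at 24 h, a log2 change of 0.30 (SE 0.13, adjusted p = 0.239). The pair with the +80 kb bin had a log2 change of 0.15 (95% interval −0.12 to 0.41, adjusted p = 0.708), and its groups overlapped. Without TKO 0 h replicate 1 that value was −0.019. The gene body pair with the +80 kb bin had 3.05, 4.23 and 4.34 CPM at 0 h and 5.25, 4.85 and 5.74 at 24 h, a log2 change of 0.59 (SE 0.22, adjusted p = 0.138).

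Of the 19 pairs 17 had a log2 change above 0, and their median was 0.21, against 0.01 over all tested pairs. Without TMM scaling the medians were 0.10 and −0.10, and the same number of 2 Sall4 pairs was called. The pairs listed in all 3 ES-type lists summed to 159, 173 and 176 CPM at 0 h and 176, 192 and 167 at 24 h, and the ranges overlapped (exact permutation test over 2 against 2 replicates, two-sided p = 0.667, smallest possible 0.333). For the 6 of these that do not touch the Sall4 bin the 0 h sums of 32.6, 34.7 and 36.7 and the 24 h sums of 43.0, 43.4 and 39.5 did not overlap (exact permutation p = 0.333, the smallest the design allows). The 2 called pairs are among these 6, so this sum is not a separate result.

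Of the 22 pairs at 0 h, 19 were in the 24 h list (86.4% of the first and 73.1% of the second, against 73.9% and 83.0% for chromosome 2). Listed at 0 h only were 3 pairs of 3.96 to 5.89 CPM, and at 24 h only 7 of 3.24 to 5.29 CPM. None of them was among the 6 strong partners. At 24 h the upstream neighbour gained a listed pair with the +80 kb bin, at 5.06, 4.58 and 4.75 CPM.

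**Figure D5:**
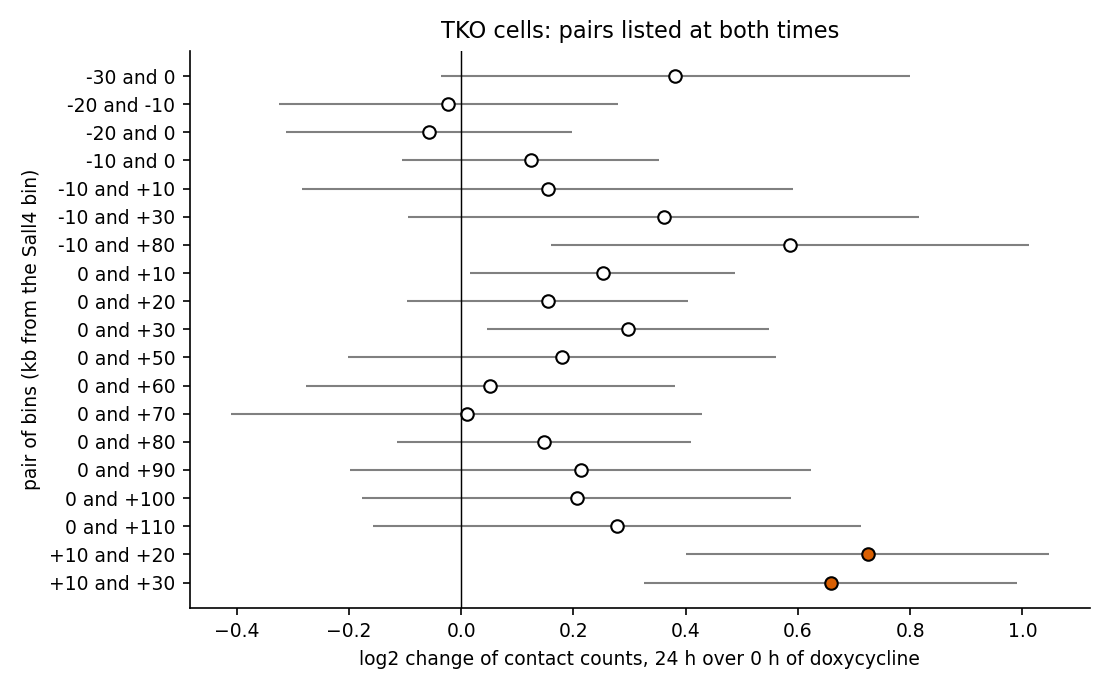
Log2 change of contact counts, 24 h over 0 h of doxycycline, in TKO cells (horizontal axis) for the 19 Sall4 pairs in both lists (vertical axis, bins named by kb from the Sall4 bin), with 95% intervals. Filled points are the 2 pairs called at an adjusted p under 0.05, both at the +10 kb bin, and 17 of the 19 points lie above 0.

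Before doxycycline, TKO cells were compared with the ES cells that the labels give as the same line. The Sall4 bin was chosen in part by its H3K27ac pairs in these ES cells. The shares and changes below are therefore not independent of that choice. Of the 26 ES pairs 20 were in the TKO 0 h list (76.9% of the ES pairs and 90.9% of the TKO pairs, against 79.9% and 63.6% for chromosome 2). In edgeR's quasi-likelihood test 5 of the 20 were lower in TKO at 0 h, where 16.5% of 58574 pairs were called and 7.39% were lower. The largest of these was between the gene body and the +30 kb bin, with 4.03 and 5.01 CPM in ES and 3.05, 4.23 and 3.00 at 0 h, a log2 change of −0.71 (SE 0.21, adjusted p = 0.0110). The pair of the Sall4 bin and the +30 kb bin had 15.4 and 16.9 CPM in ES and 13.4, 15.8 and 15.8 at 0 h, a log2 change of −0.43 (SE 0.11, adjusted p = 0.00479). The values overlapped in both pairs.

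Of the 5, 3 had the +30 kb bin as an anchor, among them the pair with the +10 kb bin, at 8.06 and 7.23 CPM in ES and a log2 change of −0.56 (adjusted p = 0.0117). The other 2 joined the Sall4 bin with the −70 kb and −30 kb bins (log2 changes of −0.50 and −0.58). The result depended on the scaling. All 20 values were below 0 with a median of −0.24, against −0.01 over all pairs, but without TMM the median was 0.06, against 0.29 over all pairs, and edgeR called 0 of the 20, with 0 at an unadjusted p under 0.05. All 5 calls were also lost without TKO 0 h replicate 1. DESeq2 called 0 of the 12 to which it gave an adjusted p, with 3 of the 20 at an unadjusted p under 0.05. This comparison and that of 24 h with 0 h share the 0 h libraries, so the 2 changes at the pair of the +10 and +30 kb bins, −0.56 and 0.66, are not independent.

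Other genes of the pluripotency network were described by the interactions of their own bins. All 21 annotated members of a list of 23 had more H3K27ac interactions in ES than in MEF, with a median of 8 against 0. Of all gene bins, 64.2% had more in ES. Gene bins came from the TKO lists, and per named gene the bin with most ES interactions was taken, which favours ES. The 64.2% is over all gene bins, without that last choice. With 20, the Sall4 bin was below Nanog and Mycn (23 each), 2 transcription factor genes of pluripotent cells, and above Dppa5a (19), Pou5f1 (17) and Tdgf1 (14). After 24 h in TKO cells 0 of the 156 tested pairs at these gene bins were higher and 13 were lower, spread over 7 genes, against 2.04% lower over all pairs. Nanog had 3 lower pairs of 17. Median log2 changes per gene at 24 h ran from −0.46 at Klf4 (3 pairs) to 0.24 at Fgf4 (5 pairs). In TKO at 0 h against ES, 47 of the 169 tested pairs at these gene bins were lower and 16 were higher. Over all 58574 pairs, 4326 were lower and 5352 higher. Lower pairs were thus frequent at other genes of this list too, not at Sall4 alone.

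Within the SALL family, Sall1 had 12 H3K27ac interactions in ES, 0 in MEF, 11 in TKO at 0 h and 9 at 24 h, and 3 with KLF4 in ES. Of its 9 tested pairs 2 were lower at 24 h (2.04% over all pairs), with a median log2 change of −0.40, whereas the median of the 13 pairs of the Sall4 bin was 0.18. The 1 tested pair of Sall2 had a log2 change of 0.26 at 24 h, and Sall3 had 0 tested pairs. In TKO at 0 h against ES, 6 of the 11 tested pairs of Sall1 were lower and 0 of 1 of Sall2. Sall2 had 3 H3K27ac interactions in ES and 1 in MEF, and Sall3 had 0 in both. Of the NuRD subunits, the partners of SALL4, all 11 had more H3K27ac interactions in ES than in MEF, with a median of 9 against 1. Of all gene bins 64.2% did, and the choice of bins favours ES here as well. Mta2, an MTA subunit, had 33 and 13, and Rbbp7, a histone-binding subunit, 14 and 2. At 24 h 2 of their 93 tested pairs were higher, both at Gatad2a, and 0 were lower, against 0.576% and 2.04% over all pairs.

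The 5 gene bins whose numbers over the 9 lists were most like those of Sall4, by Euclidean distance of log2(number + 1), lay on other chromosomes. Nearest was 4930535G08Rik on chromosome 1 (distance 0.825), with 0 in MEF H3K27ac, 19 in ES, 21 and 21 in TKO and 4 in ES KLF4. The bin of Ash2l and Kcnu1 (0.858) and that of 4933439N14Rik (0.963), both on chromosome 8, Tdrd12 on chromosome 7 (1.12) and Lncenc1 on chromosome 13 (1.28) followed. All 5 had 0 interactions in MEF H3K27ac, in day 3 KLF4 and in day 6 KLF4, as Sall4 did. These lists entered the distance, so the shared values of 0 largely follow from the choice. Of the genes near Sall4, the bin of Atp9a had 5 H3K27ac interactions in ES and that of Zfp64 9, and both had 0 in MEF.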

How the data were processed

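The deposited interaction lists pair 10 kb bins. Per the file headers each replicate has a count of contacts, its CPM and a ratio corrected for distance. Each pair has a p-value and an FDR. In HiChIP the authors' CPM is the count over the contacts of the same chromosome. The deposited Hi-C signal, headed CPM, is scaled by constants of unstated origin, and no result uses the ratio. Alignment used Bowtie2 2.2.3 to mm10, per the submitters' processing notes; the interaction caller is not given in the sources used here. As the values show, the lists were filtered by the authors to p-values under 0.1 (0.01 in Hi-C) and more than 3 CPM in every library, except replicate 3 of the day 3 list and replicates 3 and 4 of the day 6 and ES KLF4 lists. In Hi-C the signal was at least 15. TAD lists are in steps of 40 kb.

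Within groups, counts of libraries were set against each other in chi-square tests, and pairs with a p-value of at least 0.01, in groups where others differed, were summed as 1 replicate. Mean CPM is over these replicates. Pairs in both lists were tested on counts in R 4.3.3 by the quasi-likelihood method of edgeR 4.0.16 after filterByExpr and TMM scaling, with Benjamini-Hochberg adjustment over all pairs and calls at 0.05; the step was tested on simulated data. Alternatives were no TMM, DESeq2 1.42.0, no filter, each replicate left out, libraries separate and a replicate block. Shares of lists have 95% Wilson intervals in the tables, which cover counting error only, since PCR copies are not independent molecules.

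Sall4, its gene lists and the tests were chosen with earlier results of these data known. Named genes were Sall4, genes the authors assign to its partner bins, the 5 strongest pairs per list, up to 5 members of each gene list, and the 5 gene bins most like Sall4 over 100 kb away. RefSeq (GRCm38.p6) gave gene positions and upstream sequences.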

Additional observations from a re-analysis of the deposited data

Results flagged for a closer look

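In ES KLF4, replicate 2 had 3.91 CPM at the pair of bins 168740001 and 168750001, far from the 5.56, 5.56 and 5.73 CPM of replicates 1, 3 and 4. The gap to the nearest library was 0.903 of the range of the 4, above Dixon's critical value of 0.829. The 4 Sall4 pairs of this list were the only ones with 4 libraries, and chance alone flags about 1 in 20 groups. Replicate 2 is the library with the fewest contacts of the group, 51.9 M.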

How the results depend on the processing

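Sall4 pairs are listed only above the authors' limits, and a pair at 3 CPM on chromosome 2 rests on 11.2 to 41.2 contacts in a HiChIP library, so weak pairs were not detectable at this depth. In the counts of called pairs over all bins, leaving out TMM gave 2825 (155 higher, 2670 lower) in place of 1774 (390 higher, 1384 lower) for TKO at 24 h against 0 h, 284 in place of 532 for KLF4 in ES against day 3, and 18163 (17204 higher, 959 lower) in place of 9678 (5352 higher, 4326 lower) for TKO at 0 h against ES. DESeq2 gave 121, 72 and 1578 for these 3, and 0 in place of 40 for Hi-C, with 669 at an unadjusted p under 0.05. The replicate numbers did not pair the libraries, since correlations of same-numbered libraries ran from −0.06 to 0.03. With a replicate block the counts were 2024 for TKO, 74 for Hi-C, 335 for KLF4 and 7793 for TKO against ES, and 2 Sall4 pairs were called in each of the TKO and TKO against ES comparisons. Leaving out 1 replicate at a time gave 335 to 1185 for TKO at 24 h (335 without the joined 0 h replicates 2 and 3, 342 without the joined 24 h replicates 1 and 3, 1055 without 24 h replicate 2), 3 to 113 for Hi-C (3 and 10 without MEF replicates 1 and 2, 113 without ES replicate 2), 135 to 687 for KLF4 (254, 256 and 135 without day 3 replicates 1, 2 and 3, and 243 without the joined ES replicates 3 and 4) and 3830 to 6453 for TKO against ES (3830 without the joined 0 h replicates 2 and 3, 6453 without 0 h replicate 1, 6335 and 5751 without ES replicates 1 and 2). A fit without a replicate has fewer samples and assumes that a lone sample varies like the other group; the cause of the other shifts was not tested.

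Requiring at least 2 times the lowest mean of a list left 10 Sall4 pairs in each H3K27ac list of ES-type cells, 2 in MEF Hi-C and 5 in ES Hi-C. The Sall4 bin alone had 2 and 5 in Hi-C, and without adjacent bins ES KLF4 kept 1 pair. With anchors up to 1 bin away, 92.3% of the ES H3K27ac pairs were in TKO 0 h and 84.6% in ES Hi-C. Of the TKO 0 h pairs 100% were in TKO 24 h. No chromosome 2 shares were computed with this allowance. When replicates were left out of the TKO comparison, the log2 change of the Sall4 bin with the +80 kb bin was −0.019 (without 0 h replicate 1), 0.44 (without 0 h replicates 2 and 3), 0.15 (without 24 h replicates 1 and 3) and 0.14 (without 24 h replicate 2). That of the shared Hi-C pair ran from −0.25 (without ES replicate 2) to 0.39 (without ES replicate 1). All 5 calls of lower pairs in TKO at 0 h were lost without TMM and without 0 h replicate 1.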

Other observations

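Another strong H3K27ac pair between 168660001 and 168970000 joined bin 168950001, which holds the start of the zinc finger gene Zfp64, with bin 168960001. Its mean over libraries was 23.4 CPM in ES, 27.8 in TKO at 0 h and 22.2 at 24 h. In ES and at 0 h it was above every Sall4 pair, and in ES it was also listed with KLF4, at 7.23 CPM. The bin of 1700017J07Rik, 210 kb above the Sall4 bin, had 2 H3K27ac interactions in ES, 0 in MEF and 4 in TKO at 24 h.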
